A study of Mus musculus with 12 samples.

Results

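The matrix metalloproteinases and the tissue inhibitors of metalloproteinases were examined in mouse mesenchymal stem cells (MSCs) by RNA sequencing. The 10 genes followed here, Timp1, Timp2, Timp3, Timp4, Mmp2, Mmp3, Mmp10, Mmp13, Mmp14 and Mmp19, were taken by name from a table of 55401 genes, and each name matched 1 gene. They were chosen by their FPKM levels over the 4 groups, because Timp1 was higher still with the supernatants while markers of fibrosis were lower. Their values against untreated MSCs and against TGF-β1 alone are therefore a description, no p-value is given for them, and the calls of the fit are given beside the share of all genes called, with nothing read from them. The comparison of the 2 supernatants is not named in that choice and was tested, but its 6 libraries were among those seen when the genes were chosen, so its p-values are not independent of the choice.

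The cells were bone marrow MSCs of C57BL/6 mice, obtained commercially, in 4 groups of 3 libraries. One group was left untreated. One received TGF-β1, a cytokine that drives myofibroblastic differentiation, at 5 ng/mL. The other groups received the same TGF-β1 together with the culture supernatant of myeloid-derived suppressor cells (MDSCs), either monocytic (M-MDSC, CD11b+ Ly6G- and high in Ly6C) or granulocytic (G-MDSC, CD11b+ Ly6G+ and low in Ly6C), which had been induced from bone marrow with GM-CSF and IL-6 and sorted. They are called the M-MDSC group and the G-MDSC group below, and their fold changes are against TGF-β1 alone unless another group is named. The study asked whether the supernatants hold back the differentiation that TGF-β1 induces. No group with a supernatant but without TGF-β1 was analysed here, so an effect of the supernatant on MSCs without TGF-β1 cannot be seen, and nothing in the sources says whether the 3 libraries of a group came from separate cultures. P-values then measure only the spread between these libraries, which may be technical.

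Matrix metalloproteinases are zinc-dependent enzymes that are made as inactive precursors and, once activated, cut collagens and other matrix proteins. Tissue inhibitors of metalloproteinases (TIMPs) bind the active site of these enzymes one to one, so the amount of inhibitor set against enzyme helps to govern how much matrix is removed. In fibrosis, a rise of TIMP1 is a familiar accompaniment of scar formation. These proteins are also regulated after transcription, by secretion, activation and binding to the matrix, which RNA levels do not show.

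The libraries held from 73977669 to 84565450 counts. The marker genes of MSCs were present. Of 7, 6 passed the filter on low values (at least 1 FPKM in at least 3 libraries). Their summed level was between 499 and 598 FPKM, which hides changes in single genes. Against untreated MSCs, TGF-β1 raised Cd44, Pdgfrb and Itgb1 and lowered Pdgfra, Thy1 and Ly6a (adjusted p under 0.05, edgeR). Mean Ly6a was 245 FPKM in untreated MSCs, 16.2 with TGF-β1 alone, 92.5 in the M-MDSC group and 66.9 in the G-MDSC group. Kit, which encodes CD117, had no counts in the 6 libraries without supernatant. Markers of other cells also moved with the groups. The summed level of 10 myeloid markers was 6.20 to 7.10 FPKM in untreated MSCs, 2.27 to 3.18 with TGF-β1 alone, 4.32 to 6.80 with M-MDSC supernatant and 5.63 to 8.47 with G-MDSC supernatant, of which Ptprc, Itgam, Adgre1 and S100a9 were at 0 in all untreated libraries. Ly6g and Ly6c2 were at 1.83 and 1.71 FPKM in untreated MSCs and at 0.0681 and 0.0450 FPKM with TGF-β1 alone. Lyz2, a marker of macrophages and granulocytes, was at 0.0573 FPKM with TGF-β1 alone, 1.54 FPKM in the M-MDSC group and 1.87 FPKM in the G-MDSC group. These 3 passed the filter only through the groups in which they were high, so no test is given for them. The summed level of 6 kidney tubule markers was at most 0.201 FPKM in the 6 libraries without supernatant, where Kap, Slc34a1 and Umod were at 0. With M-MDSC supernatant it was 32.7 to 103 FPKM and with G-MDSC supernatant 68.2 to 79.6 FPKM, and the 5 of these genes that passed the filter did so only through the supernatant groups. The 4 endothelial markers summed to 0.325 to 0.589 FPKM over all libraries. The part of the myeloid and kidney transcripts in the values below was not tested.

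Levels are given as FPKM, fragments per kilobase of exon scaled to the mapped reads of the library, which can be compared between genes. Timp1, whose protein blocks most secreted metalloproteinases, was the most abundant of the 10 genes in every library. Timp1 measured 386, 408 and 397 FPKM in the untreated libraries, 863, 901 and 914 FPKM with TGF-β1 alone, 1045, 1014 and 1005 FPKM in the M-MDSC group and 1256, 1147 and 1073 FPKM in the G-MDSC group. The 4 groups did not overlap, with untreated MSCs lowest and G-MDSC supernatant highest. Ranked among the 12016 genes that passed the filter, Timp1 stood at places 102 to 105 in untreated MSCs, 44 to 45 with TGF-β1 alone, 40 to 41 with M-MDSC supernatant and 33 to 40 with G-MDSC supernatant. In the fit of the counts of all genes that passed the filter (edgeR), the log2 fold change of Timp1 was 1.23 (SE 0.054) for TGF-β1 against untreated MSCs, 0.17 (SE 0.053) for M-MDSC supernatant against TGF-β1 alone and 0.35 (SE 0.053) for G-MDSC supernatant against TGF-β1 alone. Both supernatant comparisons share the 3 libraries with TGF-β1 alone, so they are not independent of each other. In such bulk RNA, more cells that express a gene and more RNA per cell cannot be told apart.

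Timp1 (X:20870166-20874735, plus strand, GRCm38) lies inside Syn1, a neuronal synapse gene read from the opposite strand, with no exon base in common. Syn1 had between 338 and 924 counts per library, or 0.801 to 1.16 for every 100 counts of Timp1. It rose with TGF-β1 by 1.20 on the log2 scale (SE 0.10, edgeR quasi-likelihood test, adjusted p = 7.12e-06), and whether the counting of reads used strand is not given in the sources used here. The start of Timp1 is shown because it holds the only match in the gene's window to the motifs searched below. Its 27 bases at chrX:20870182-20870208 (plus strand, GRCm38) lie just downstream of the RefSeq start, and the capitals mark a match to TGAGTAA, a variant of the binding site of AP-1, the Fos and Jun transcription factor.
Timp1 start: ggtgggtggaTGAGTAAtgcgtccagg
The match begins 27 bases into the transcript. In all, 2.68% of the 32851 RefSeq promoter windows of mouse, each 300 bases long, hold these letters on either strand, and a match is no evidence that a factor binds.

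Timp2, whose protein inhibits MMP2 and also takes part in its activation at the cell surface, ran the other way. Its levels were 210, 215 and 211 FPKM in untreated MSCs, 105, 103 and 102 FPKM with TGF-β1 alone, 108, 102 and 103 FPKM in the M-MDSC group and 102, 101 and 95.6 FPKM in the G-MDSC group. All untreated libraries were above all 9 others. The M-MDSC supernatant libraries overlapped those with TGF-β1 alone, and the G-MDSC supernatant libraries lay just below them. The log2 fold change of Timp2 was -0.98 (SE 0.036) with TGF-β1, -0.01 (SE 0.036) in the M-MDSC group and -0.08 (SE 0.036) in the G-MDSC group, the last 2 against TGF-β1 alone, and the sign of the value for M-MDSC supernatant turned under other scalings. Timp2 lies at 11:118301069-118355740 on the minus strand.

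Timp3, which encodes the inhibitor that binds tightly to the matrix, differed least of the 3 expressed inhibitors between untreated and TGF-β1-treated MSCs. It measured 40.7, 38.2 and 40.8 FPKM in untreated MSCs, 36.9, 38.7 and 34.8 FPKM with TGF-β1 alone, 33.9, 33.7 and 33.3 FPKM in the M-MDSC group and 33.5, 31.7 and 33.1 FPKM in the G-MDSC group. Untreated and TGF-β1-treated libraries overlapped, and all 6 supernatant libraries lay below both. In the fit, the log2 fold change of Timp3 was -0.06 (SE 0.044) with TGF-β1, -0.15 (SE 0.044) in the M-MDSC group and -0.19 (SE 0.044) in the G-MDSC group. Timp3 (10:86300372-86349506, plus strand) shares 1733 of its 8144 exon bases with Syn3 on the opposite strand, which had at most 18 counts in any library.

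Timp4, an inhibitor found mainly in heart and a few other tissues, was close to absent. It had 4, 0 and 4 counts in the untreated libraries and 0 in the other 9. A count of 0 allows for up to 3 counts where reads are counted one by one. It may allow for more here, since low counts in these libraries pile up at multiples of 4. No fold change is given for it. Timp4 lies at 6:115241892-115252205 on the minus strand.

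**Figure D1:**
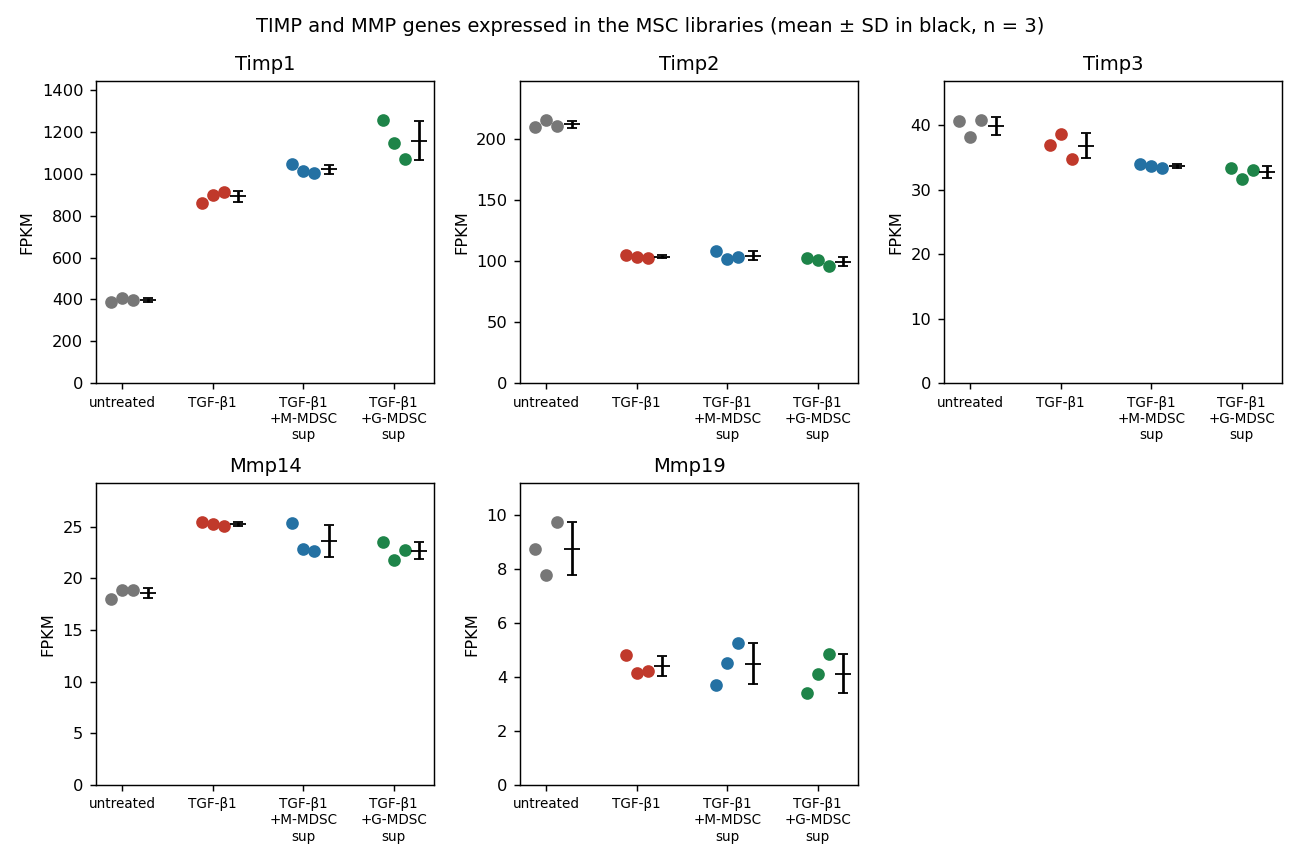
Level (FPKM, linear axis from 0) of the 5 genes that passed the filter in each of the 12 libraries, with 1 coloured point per library and the mean ± SD (n = 3) in black beside it. Timp1 lies between 386 and 408 FPKM in untreated MSCs and between 1073 and 1256 FPKM with G-MDSC supernatant, while Timp2 and Mmp19 are lower in all 9 libraries with TGF-β1 than in any untreated one.

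Among the metalloproteinases, Mmp14 was the most abundant of the 6. It encodes MT1-MMP, a membrane-anchored collagenase that activates MMP2 together with TIMP2. Mmp14 measured 18.0, 18.8 and 18.8 FPKM in untreated MSCs, 25.5, 25.3 and 25.1 FPKM with TGF-β1 alone, 25.4, 22.9 and 22.6 FPKM in the M-MDSC group and 23.5, 21.8 and 22.7 FPKM in the G-MDSC group. Untreated MSCs were below all other libraries. The G-MDSC supernatant libraries lay below those with TGF-β1 alone, and M-MDSC supernatant overlapped both. The log2 fold change of Mmp14 was 0.50 (SE 0.050) with TGF-β1, -0.12 (SE 0.050) in the M-MDSC group and -0.18 (SE 0.050) in the G-MDSC group. It lies at 14:54431612-54441265 on the plus strand.

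Mmp19, a secreted enzyme that cuts basement membrane proteins, followed the pattern of Timp2. Its levels were 8.76, 7.80 and 9.75 FPKM in untreated MSCs, 4.81, 4.13 and 4.23 FPKM with TGF-β1 alone, 3.71, 4.52 and 5.24 FPKM in the M-MDSC group and 3.41, 4.10 and 4.86 FPKM in the G-MDSC group. The untreated libraries stood above the rest, and the 3 groups with TGF-β1 overlapped one another. Its log2 fold change was -0.94 (SE 0.15) with TGF-β1, 0.01 (SE 0.15) in the M-MDSC group and -0.12 (SE 0.15) in the G-MDSC group. Mmp19 (10:128790910-128800824, plus strand) shares 789 of its 3533 exon bases with Tmem198b on the opposite strand, which had 1524 to 2277 counts and a log2 fold change of 0.31 with TGF-β1 (SE 0.13, edgeR quasi-likelihood test, adjusted p = 0.1003). If reads were counted without strand, part of the Mmp19 count could have come from that gene, so its level is uncertain.

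The other 4 metalloproteinase genes stayed under 1 FPKM in all 12 libraries and did not pass the filter. Their fold changes come from a fit of 28622 genes without it, chosen after the data were seen. Mmp3 encodes stromelysin-1, an enzyme of broad specificity that also activates other metalloproteinases. It had 126, 84 and 101 counts in untreated MSCs (0.816, 0.497 and 0.622 FPKM), 15, 12 and 15 counts with TGF-β1 alone (0.0909, 0.0687 and 0.0893 FPKM), 34, 12 and 47 counts with M-MDSC supernatant (0.224, 0.0743 and 0.297 FPKM) and 91, 85 and 116 counts with G-MDSC supernatant (0.535, 0.534 and 0.712 FPKM). In the G-MDSC group, Mmp3 lay in the range of untreated MSCs and above every library with TGF-β1 alone or with M-MDSC supernatant. With M-MDSC supernatant, 2 libraries were above those with TGF-β1 alone while replicate 2 lay within their range. The log2 fold change of Mmp3 was -2.83 (SE 0.43) with TGF-β1, 1.21 (SE 0.43) in the M-MDSC group and 2.76 (SE 0.43) in the G-MDSC group, and the value for M-MDSC supernatant was 0.82 to 1.59 when 1 library was left out.

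Mmp13 encodes collagenase-3, the main interstitial collagenase of rodents. It had 24, 19 and 22 counts in untreated MSCs, 23, 12 and 23 with TGF-β1 alone, 87, 67 and 25 in the M-MDSC group and 173, 96 and 85 in the G-MDSC group, or 0.0891 ± 0.015, 0.0777 ± 0.027, 0.265 ± 0.15 and 0.481 ± 0.18 FPKM (SD, n = 3). Untreated and TGF-β1-treated MSCs overlapped, and both supernatant groups lay above them, with M-MDSC replicate 3 only just so. Its log2 fold change was -0.11 (SE 0.49) with TGF-β1, 1.72 (SE 0.48) in the M-MDSC group and 2.56 (SE 0.49) in the G-MDSC group. For M-MDSC supernatant the value was 2.10 without M-MDSC replicate 3.

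Mmp10 encodes stromelysin-2, a close relative of MMP3. It had 21, 39 and 47 counts in untreated MSCs, 35, 90 and 24 with TGF-β1 alone, 66, 45 and 49 in the M-MDSC group and 109, 82 and 87 in the G-MDSC group. TGF-β1 replicate 2 stood well above its group and reached the range of the G-MDSC supernatant libraries. For Mmp10 the log2 fold change was 0.53 (SE 0.46) with TGF-β1, 0.19 (SE 0.45) in the M-MDSC group and 0.87 (SE 0.45) in the G-MDSC group. Without TGF-β1 replicate 2 these became -0.21, 0.94 and 1.61, so that library set both the direction of the first value and the size of the others.

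Mmp2, the gene of gelatinase A, is often high in fibroblasts but was very low in these MSCs. It had 12, 27 and 19 counts in untreated MSCs, 46, 30 and 21 with TGF-β1 alone, 22, 13 and 15 in the M-MDSC group and 30, 12 and 31 in the G-MDSC group, at most 0.149 FPKM. All neighbouring groups overlapped. The log2 fold changes of Mmp2 were 0.80 (SE 0.49), -0.86 (SE 0.49) and -0.44 (SE 0.49) in the same order of comparisons. They moved to 0.46 and -0.52 for the first and second without TGF-β1 replicate 1, and the last to -0.11 without that library, to -0.13 without G-MDSC replicate 2 and to -0.67 without TGF-β1 replicate 3. Mmp2 lies at 8:92827291-92853420 on the plus strand.

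**Figure D2:**
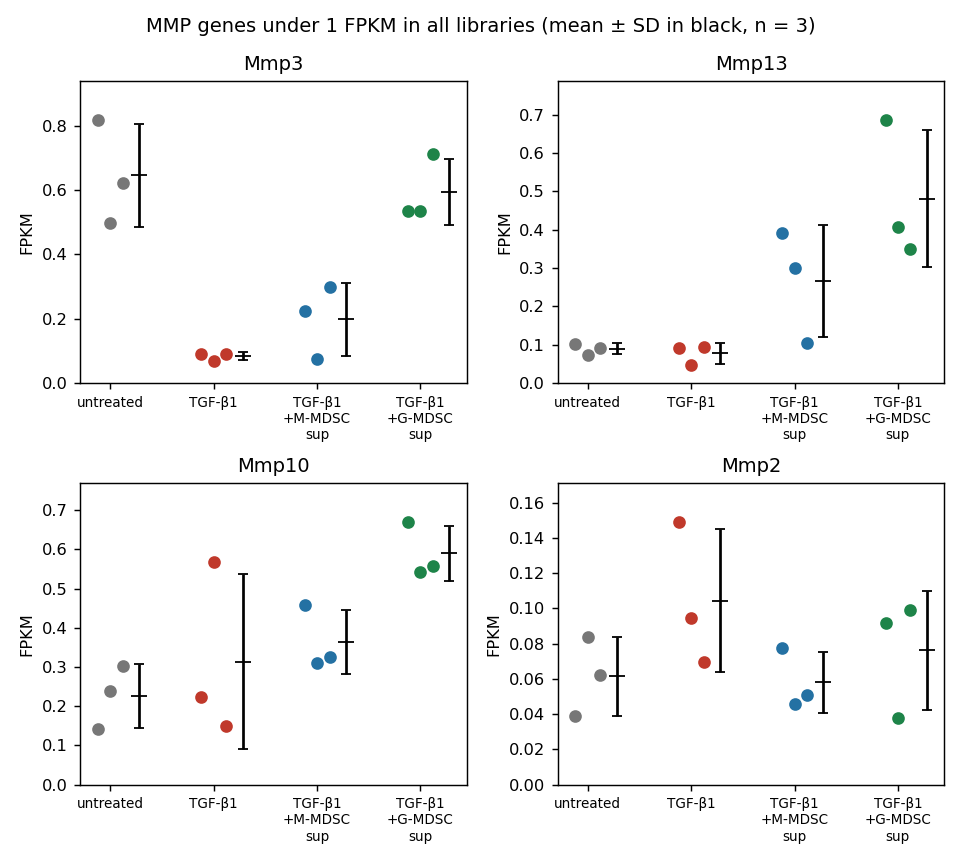
Level (FPKM, linear axis from 0, with a scale of its own in each panel) of the 4 metalloproteinase genes under 1 FPKM in all 12 libraries, 1 point per library with mean ± SD (n = 3) in black. Mmp3 is lowest with TGF-β1 alone and lies in the untreated range with G-MDSC supernatant, Mmp13 is higher in both supernatant groups, and for Mmp10 1 TGF-β1 library stands apart from its group.

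Mmp3 (9:7445822-7455975), Mmp10 (9:7502352-7510240) and Mmp13 (9:7272514-7283331), all on the plus strand, belong to a cluster of 10 metalloproteinase genes that spans 427 kb of chromosome 9, from 7272514 to 7699585. All 3 had their highest group mean among the TGF-β1-treated groups with G-MDSC supernatant, so the 250 bases before the RefSeq start of each are shown (GRCm38.p6, plus strand). Capitals mark matches to TGAGTCA, the AP-1 consensus (TGACTCA when read on the other strand), and to TATAAA, the TATA box. Mmp3 is at chr9:7445572-7445821, Mmp10 at chr9:7502092-7502341 and Mmp13 at chr9:7272264-7272513.
Mmp3: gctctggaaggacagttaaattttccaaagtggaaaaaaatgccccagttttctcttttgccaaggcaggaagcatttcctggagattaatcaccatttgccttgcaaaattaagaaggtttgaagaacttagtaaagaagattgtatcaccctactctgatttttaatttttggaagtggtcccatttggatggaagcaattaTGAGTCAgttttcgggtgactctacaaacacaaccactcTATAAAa
Mmp10: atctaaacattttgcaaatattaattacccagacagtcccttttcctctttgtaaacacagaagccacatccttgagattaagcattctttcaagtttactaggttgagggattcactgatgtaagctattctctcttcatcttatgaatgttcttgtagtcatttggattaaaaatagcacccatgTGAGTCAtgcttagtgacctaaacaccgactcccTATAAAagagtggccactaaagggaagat
Mmp13: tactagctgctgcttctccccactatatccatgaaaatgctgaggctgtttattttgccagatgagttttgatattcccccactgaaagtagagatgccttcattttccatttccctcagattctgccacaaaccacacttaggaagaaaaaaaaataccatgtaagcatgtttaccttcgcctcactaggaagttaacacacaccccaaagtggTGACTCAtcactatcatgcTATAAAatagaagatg
The AP-1 match began 46 bases before the start in Mmp3, 63 in Mmp10 and 35 in Mmp13, where it was on the other strand. The TATAAA match began 7, 29 and 16 bases before the start. TGAGTCA was searched on both strands and occurred in 5.20% of the 32851 windows of 300 bases, and TATAAA, searched on the given strand only, in 8.32%. TGAGTCA and TGAGTAA differ by 1 letter and were counted apart. Of 2 further motifs searched on both strands, the TGF-β inhibitory element was in 1.00% of windows and in none of the members, and the core of the interferon-stimulated response element was in 3.44% of windows and in that of Mmp13, where it began 146 bases before the start. Windows were found for 8 of the 10 genes, not for Mmp2 and Mmp19, and those of Timp2, Timp3, Timp4 and Mmp14 held none of these letters. Matches are descriptions of letters and show neither a site in use nor a cause.

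Summed by family, the 4 Timp genes were above the 6 chosen Mmp genes at the RNA level in every library. The 4 Timp genes summed to 649 ± 12.8 FPKM in untreated MSCs, 1033 ± 25.0 with TGF-β1 alone, 1160 ± 24.9 in the M-MDSC group and 1291 ± 96.0 in the G-MDSC group (SD, n = 3). The 6 Mmp genes summed to 28.4 ± 1.14, 30.3 ± 0.572, 29.0 ± 1.11 and 28.6 ± 0.979 FPKM in the same order. The ratio of the sums was thus 22.9 ± 1.09 in untreated MSCs, 34.2 ± 1.45 with TGF-β1 alone, 40.0 ± 0.821 in the M-MDSC group and 45.2 ± 3.75 in the G-MDSC group. The sum of the 6 Mmp genes ranged from 27.5 to 30.8 FPKM over all 12 libraries. These sums leave out the 17 other Mmp genes that were looked up. With all 23 Mmp genes the enzymes summed to 45.1 ± 1.20 FPKM in untreated MSCs, 42.7 ± 0.669 with TGF-β1 alone, 40.8 ± 1.06 in the M-MDSC group and 41.0 ± 0.377 in the G-MDSC group. The ratio was then lower in each group, at 14.4 ± 0.480, 24.2 ± 0.890, 28.4 ± 0.623 and 31.5 ± 2.64 in the same order, and Mmp14 made up 41.2 ± 1.07%, 59.2 ± 0.935%, 58.0 ± 2.905% and 55.4 ± 2.41% of the sum over 23 genes.

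The make-up of each family also differed. Timp1 made up 61.2% ± 0.527 of the Timp sum in untreated MSCs, 86.4% ± 0.539 with TGF-β1 alone, 88.1% ± 0.0965 in the M-MDSC group and 89.7% ± 0.480 in the G-MDSC group. The share of Timp2 was 32.7% ± 0.241 in untreated MSCs and 10.03% ± 0.381, 9.01% ± 0.131 and 7.72% ± 0.323 in the treated groups in that order. Timp1 therefore stood at 1.87 ± 0.0290 times Timp2 in untreated MSCs and at 8.63 ± 0.372, 9.78 ± 0.153 and 11.6 ± 0.558 times in the treated groups. Mmp14 made up 65.5% ± 2.58 of the sum of the 6 Mmp genes in untreated MSCs, 83.6% ± 0.921 with TGF-β1 alone, 81.4% ± 2.47 in the M-MDSC group and 79.5% ± 1.89 in the G-MDSC group. For Timp2 against Mmp14, whose proteins meet at the cell surface, the ratio was 11.4 ± 0.211 in untreated MSCs and 4.09 ± 0.0303, 4.42 ± 0.141 and 4.39 ± 0.203 in the treated groups. All shares and ratios rest on FPKM and say nothing of protein.

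**Figure D3:**
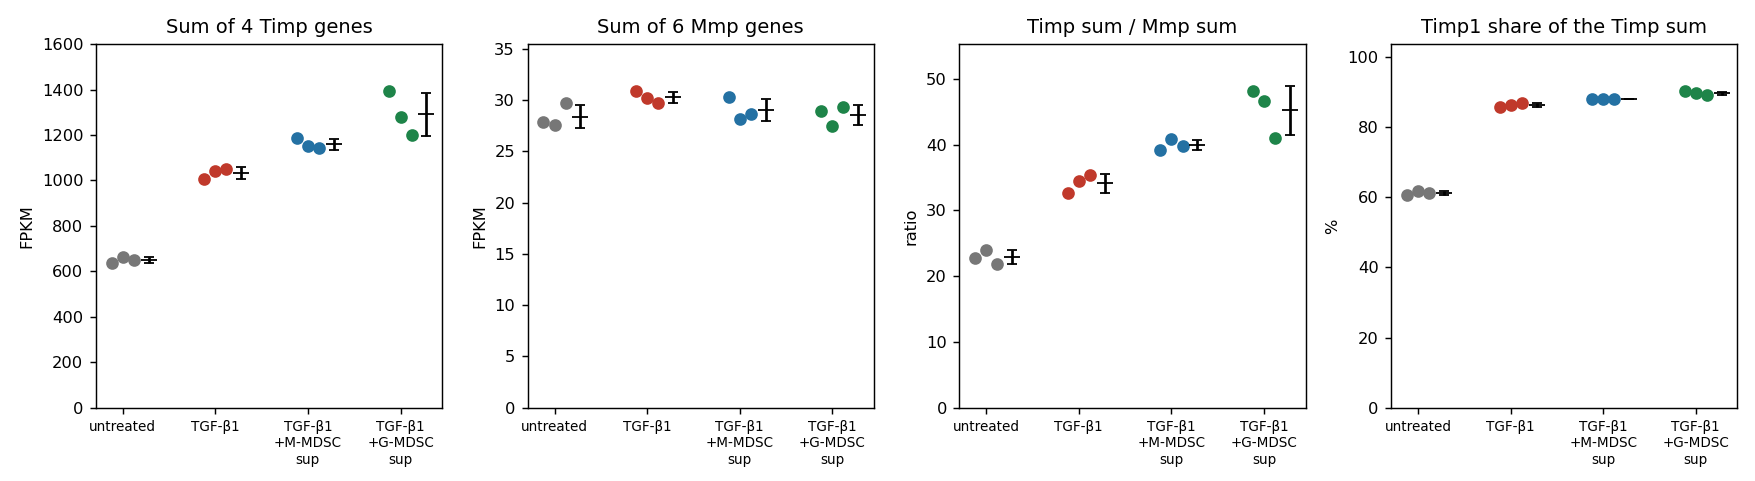
Sum of the 4 Timp genes (FPKM), sum of the 6 Mmp genes (FPKM), their ratio and the share of Timp1 in the Timp sum (%), 1 point per library with mean ± SD (n = 3) in black and linear axes from 0. The Mmp sum stays between 27.5 and 30.8 FPKM while the Timp sum lies between 636 and 662 FPKM in untreated MSCs and between 1201 and 1392 FPKM with G-MDSC supernatant.

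With calls made at an adjusted p under 0.05 (edgeR quasi-likelihood test, Benjamini-Hochberg over the 12016 genes), 4 of the 5 members that passed the filter were called for TGF-β1 against untreated MSCs, Timp1 and Mmp14 higher and Timp2 and Mmp19 lower, where 34% of all genes tested were called. For M-MDSC supernatant against TGF-β1 alone, 0 of 5 were called against 4.78% of all genes, 3 had an unadjusted p under 0.05 against 16.7% of all genes, and DESeq2 and limma also called 0. For G-MDSC supernatant, 2 of 5 were called, Timp1 higher and Timp3 lower, against 5.56% of all genes, and Timp3 lost its call when any 1 of 5 of the 6 libraries compared was left out. Without the filter, Mmp3 was also called for TGF-β1, and Mmp3 and Mmp13 for G-MDSC supernatant, where Timp3 was not. In that fit 14.6%, 2.1% and 2.58% of 28622 genes were called in the 3 comparisons. The libraries of the 2 groups did not overlap in 46.7%, 24% and 22.7% of the 12016 genes. Because these comparisons chose the members, nothing is read from the counts. By the study's own rule, a fold above 2 or below 0.5 with an unadjusted p under 0.05, the members called of the 5 that passed the filter were 1 (Timp1), 0 and 0, against 6.74%, 2.18% and 2.17% of genes, and 0 between the supernatants, against 0.549%. Without the filter, Mmp3 also met that rule in all 4 comparisons and Mmp13 met it with each supernatant, where 7.15%, 4.14%, 4.4% and 1.54% of the 28622 genes did, the last between the supernatants.

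The comparison of M-MDSC with G-MDSC supernatant, both with TGF-β1, asks whether the 2 kinds of MDSC differ in their effect. None of the 5 members that passed the filter was called. Timp1 was lower with M-MDSC supernatant by a log2 fold change of -0.18 (SE 0.053, unadjusted p = 0.00695, adjusted p = 0.466, edgeR quasi-likelihood test), all 3 M-MDSC libraries lay below the 3 G-MDSC libraries, and the adjusted p ran from 0.225 to 0.854 over 17 alternatives. The log2 fold change of Timp1 was -0.12 without G-MDSC replicate 1. It was the 1 member of 5 with an unadjusted p under 0.05, which 6.33% of all genes had. In 12% of all genes the 2 groups did not overlap. DESeq2 and limma also called 0 members, and edgeR called 0.125% of all genes with the filter and 0.0419% without it.

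None of the remaining expressed members was called between the supernatants. The log2 fold change of M-MDSC against G-MDSC supernatant was 0.07 (SE 0.036) for Timp2, 0.04 (SE 0.044) for Timp3, 0.06 (SE 0.050) for Mmp14 and 0.13 (SE 0.15) for Mmp19, with adjusted p of 0.824 (edgeR) for Timp2 and 0.953 to 0.968 for the others. These small values moved with single libraries, Timp2 to 0.0447 without M-MDSC replicate 1 and 0.0469 without G-MDSC replicate 3, Timp3 to 0.0184 without G-MDSC replicate 2, and Mmp14 to 0.0067 without M-MDSC replicate 1 and 0.0339 without G-MDSC replicate 2. Mmp14 was at 0.0948 without M-MDSC replicate 3, and Mmp19 was at 0.0033 without that library, 0.0087 without G-MDSC replicate 1, 0.246 without M-MDSC replicate 1 and 0.263 without G-MDSC replicate 3. Among the genes under the filter, Mmp3 was lower with M-MDSC supernatant by a log2 fold change of -1.54 (SE 0.41, unadjusted p = 0.00293, adjusted p = 0.599, edgeR without the filter), and the 2 groups did not overlap, which held for 9.04% of the 28622 genes. The adjusted p of Mmp3 ran from 0.0586 with DESeq2 to 0.911 over 16 alternatives, and the log2 fold change was -1.17 without M-MDSC replicate 2 and -1.94 without M-MDSC replicate 3. For Mmp10 the log2 fold change was -0.68 (SE 0.45) with groups that did not overlap, and for Mmp13 it was -0.84 (SE 0.46) with groups that did, both at an adjusted p of 0.809 (edgeR without the filter), and the value of Mmp13 was -0.47 without M-MDSC replicate 3. For Mmp2 it was -0.42 (SE 0.49, adjusted p = 0.964, edgeR without the filter), and -0.199 to -0.728 when 1 library was left out. These p-values do not show that the supernatants act alike.

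Of 17 other metalloproteinase genes, 12 had counts and 5 passed the filter. In the fit without the filter, 3 of the 12 were called with TGF-β1, 1 higher (Mmp9) and 2 lower (Mmp11 and Mmp23), beside 14.6% of all genes, and their median log2 fold change was -0.39, against 0 over all genes. Mmp9, the gene of gelatinase B, rose from 0.153, 0.169 and 0.321 FPKM in untreated MSCs to 1.21, 1.16 and 1.03 FPKM with TGF-β1 alone, a log2 fold change of 2.44 (SE 0.25, adjusted p = 2.98e-05, edgeR without the filter). This value is from the fit without the filter, since Mmp9 passed the filter only through the groups with TGF-β1. In the fit with the filter Mmp11, Mmp16, Mmp23 and Mmp28 fell, with log2 fold changes from -0.34 to -0.62 and adjusted p (edgeR) from 0.00224 to 0.0479, and without the filter Mmp16 and Mmp28 lost their calls (adjusted p = 0.0531 and 0.0912, edgeR). Mmp9 was at 1.38, 0.992 and 1.13 FPKM with M-MDSC supernatant, overlapping TGF-β1 alone. With G-MDSC supernatant it was at 2.49, 2.17 and 2.33 FPKM, above all other libraries, and it rose against TGF-β1 alone by 1.01 on the log2 scale (SE 0.23, adjusted p = 0.0306, edgeR). It was the 1 gene of the 5 called with G-MDSC supernatant, beside 5.56% of all genes. With M-MDSC supernatant 0 of 5 were called, beside 4.78% of all genes, 1 had an unadjusted p under 0.05, beside 16.7% of all genes, and the median was -0.10, as against -0.17 with G-MDSC supernatant. The difference of Mmp9 between the supernatants was -0.99 on the log2 scale (SE 0.23) with an adjusted p of 0.219 (edgeR), and the groups did not overlap. Mmp9 is also made by neutrophils and other myeloid cells, and the part of the myeloid transcripts given above was not tested. Mmp1a, Mmp8, Mmp20, Mmp21 and Mmp27 were listed at 0 in all 12 libraries.

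**Figure D4:**
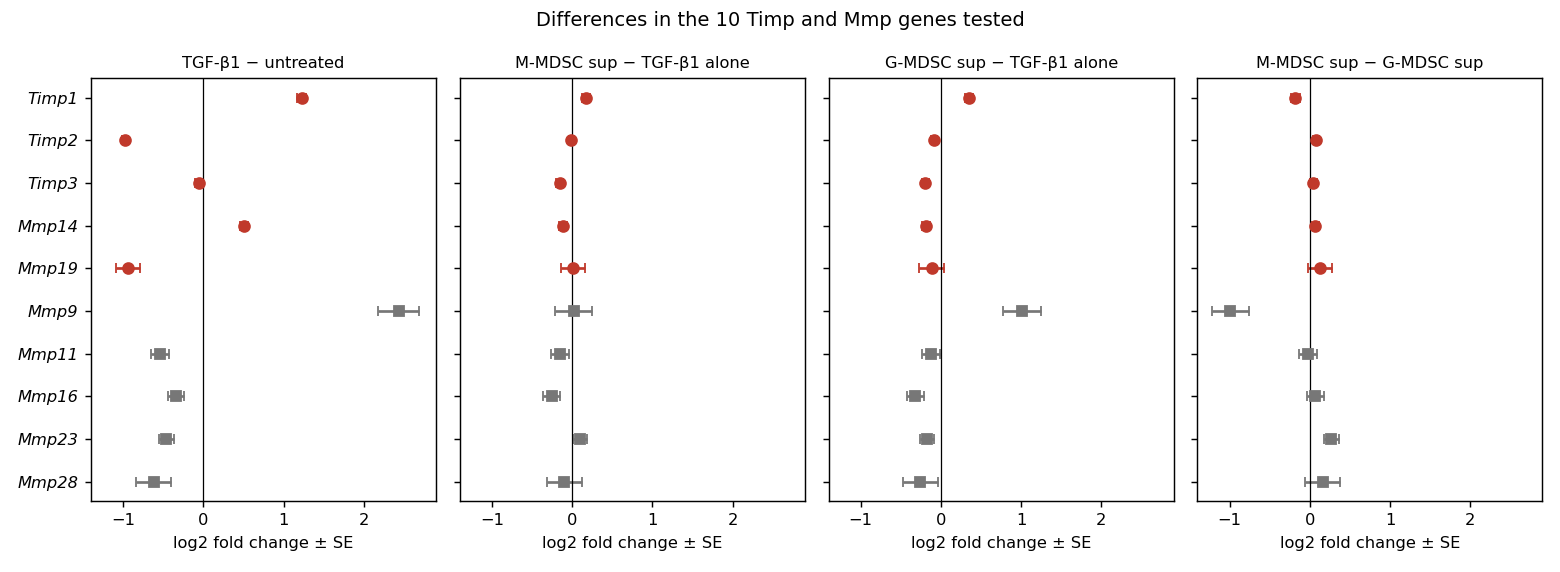
Log2 fold change ± SE from the fit across 12016 genes (n = 3 libraries per group) in 4 comparisons, for the 5 members that passed the filter (red circles) and the 5 other metalloproteinase genes that did (grey squares). With TGF-β1 Timp1 (1.23), Mmp14 (0.50) and Mmp9 (2.43) are above 0, and in G-MDSC supernatant against TGF-β1 alone Mmp9 (1.01) and Timp1 (0.35) are the genes furthest above 0.

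Genes that act on metalloproteinases were taken as a further list of 15, of which 10 passed the filter. In the fit without the filter, which tested 14 of them, 4 rose and 5 fell with TGF-β1 at an adjusted p under 0.05 (edgeR), beside 14.6% of all genes called, and the median log2 fold change was -0.05. Of these, Tfpi2 and Spock2 did not pass the filter, and Tfpi2 had 0 counts in every untreated library and 76 to 104 with TGF-β1 alone. In the fit with the filter the median was -0.06 in the M-MDSC group and -0.0078 in the G-MDSC group. Pcolce2, an enhancer of procollagen processing, rose by 2.10 (SE 0.078), from 1.92 ± 0.115 to 7.92 ± 0.580 FPKM, with an adjusted p of 1.08e-08 (edgeR), while its relative Pcolce fell from 129 ± 7.16 to 56.6 ± 3.40 FPKM (adjusted p = 1.74e-07, edgeR). Reck, a membrane-anchored inhibitor of metalloproteinases, fell from 1.55 ± 0.146 to 0.688 ± 0.0946 FPKM (log2 fold change -1.10, SE 0.15, adjusted p = 0.000250, edgeR without the filter), a value taken without the filter because Reck passed it only through the untreated libraries. Furin, the convertase that activates MT1-MMP, rose by 0.56 (SE 0.075) and Cd63, which encodes a cell-surface partner of TIMP1, rose by 0.35 (SE 0.047). Pcsk6, another convertase, and Bsg, which encodes the metalloproteinase inducer EMMPRIN, fell, with log2 fold changes of -1.49 (SE 0.11) and -0.50 (SE 0.15). With M-MDSC supernatant 1 of 10 was called, beside 4.78% of all genes, and 4 had an unadjusted p under 0.05, beside 16.7% of all genes. The called gene was Pcolce2, with a log2 fold change of -0.34 (SE 0.074, adjusted p = 0.0255, edgeR), which lost its call without the filter (adjusted p = 0.0616, edgeR). With G-MDSC supernatant 0 of 10 were called, beside 5.56% of all genes, and 5 had an unadjusted p under 0.05, beside 17.2% of all genes. Pcolce2 was there at a log2 fold change of -0.28 (SE 0.074, adjusted p = 0.0592, edgeR), with all 3 libraries below TGF-β1 alone.

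The fibrosis markers of the study were set beside Timp1, and since the choice of the members used their lower levels with the supernatants, their direction there is not independent evidence. All 8 (Acta2, Col1a1, Col3a1, Col5a1, Col5a2, Col6a3, Fn1 and Ccn2) rose with TGF-β1, beside 34% of all genes called, with a median log2 fold change of 1.36, where Timp1 was at 1.23. With M-MDSC supernatant 4 fell (Acta2, Col3a1, Col6a3 and Fn1), beside 4.78% of all genes called in either direction, and the median was -0.22. With G-MDSC supernatant 7 fell, all but Col1a1, beside 5.56% of all genes, and Col3a1 lost its call without the filter (adjusted p = 0.0944, edgeR). The median was there -0.31, where the median over all genes tested was -0.01 in both comparisons. Acta2, the gene of alpha smooth muscle actin, was at 1528 ± 93.3 FPKM in untreated MSCs, 2123 ± 47.4 with TGF-β1 alone, 1595 ± 74.6 in the M-MDSC group and 1516 ± 72.2 in the G-MDSC group. Against TGF-β1 alone, Timp1 was thus higher in the supernatant groups while the called markers were lower, a contrast that the choice of the members fixed, whereas in untreated MSCs both Timp1 and the markers were lower than with TGF-β1.

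The 5 genes whose log2(FPKM + 1) followed Timp1 most closely over the 12 libraries were Serpina3h (Pearson r = 0.998), Denr (0.993), Il11 (0.993), Abcb1a (0.992) and Wwp2 (0.992). These correlations are a description, and the libraries behind them fall into the same 4 groups for every gene. Il11, which encodes a cytokine of the IL-6 family, was at 3.77 FPKM in untreated MSCs, 34.3 with TGF-β1 alone, 42.6 in the M-MDSC group and 48.1 in the G-MDSC group, the same order of groups as Timp1. Serpina3h was at 1.43, 7.38, 9.41 and 11.7 FPKM in that order, and it belongs to a family of closely similar genes between which reads may be shared. Mmp19 had the widest gap between group means on this scale among the Mmp members, and the genes closest to it were Dhrs9 (r = 0.983), Slc25a23 (0.974), Dkk3 (0.973), Arhgap28 (0.973) and Mmut (0.972). Among the members themselves, over all 12 libraries, Timp1 ran opposite to Timp2 (r = -0.97) and Mmp19 (r = -0.95) and together with Mmp14 (r = 0.82). In these genes untreated MSCs lay apart from the groups with TGF-β1, among which the order differed. With TGF-β1 alone, M-MDSC and G-MDSC supernatant, mean Timp1 was 893, 1021 and 1159 FPKM, while Mmp14 was 25.3, 23.7 and 22.7 FPKM. Timp2 was there at 103.5, 104.5 and 99.5 FPKM and Mmp19 at 4.39, 4.49 and 4.12 FPKM.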

How the data were processed

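Poly(A) RNA of 12 MSC libraries (4 groups of 3) was sequenced in pairs on an Illumina NovaSeq with a dUTP protocol. The submitters' processing notes name cutadapt 1.9, HISAT2 2.0.4, StringTie 1.3.4d, edgeR and DESeq2, and the paper names fastp, gffcompare and GRCm38. The counting tool and its use of strand are not given in the sources used here. The deposited table holds raw counts per gene and the FPKM that the authors computed from exon length and mapped reads, with 0.0001 written for a count of 0. Low counts pile up at multiples of 4 (44.3% of the counts from 1 to 12). Counting errors of low genes may therefore be larger than their counts imply, which was not measured.

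Genes with at least 1 FPKM in at least 3 libraries (12016) were scaled by TMM and fitted with edgeR 4.0.16 (R 4.3.3), all 12 libraries in 1 quasi-likelihood fit, with two-sided tests and Benjamini-Hochberg adjustment over all genes. The 5 members under the filter were read from the same fit of 28622 genes. Alternatives were other scalings and filters, DESeq2 1.42.0, limma 3.58.1 on log2(FPKM + 1) and log2(FPKM + 0.1), a replicate block, counts divided by 4, the compared groups alone and leaving out each library. The edgeR step was tested on simulated data for TGF-β1 against untreated MSCs. It recovered 85 of 100 planted log2 fold changes of size 1 and 33 of 100 of size 0.5, with 11 false calls. With no change planted it made 0 false calls. Smaller changes were not simulated. Libraries of 1 group differed by more than counting error.

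All 10 members were named, with list genes that passed an adjusted p of 0.05 or were listed at 0 and the 5 genes most correlated with Timp1 and with the Mmp member of the widest gap. The members and lists were chosen with earlier results of these data known. Promoter windows came from RefSeq (GRCm38.p6). One gene of the kidney tubule marker list was left out and is not reported here.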

Additional observations from a re-analysis of the deposited data

How the results depend on the processing

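For M-MDSC supernatant against TGF-β1 alone and against G-MDSC supernatant, the number of called members among those that passed each filter stayed at 0 in all 18 alternatives each. In the fit without the filter, Mmp3 with M-MDSC supernatant was called without M-MDSC replicate 2, and Mmp13 with DESeq2 and without M-MDSC replicate 3. For TGF-β1 against untreated MSCs the number was 4, with 5 (Mmp3 added) without the filter and with filterByExpr, and 1 under the study's fold rule. For G-MDSC supernatant against TGF-β1 alone it was 2, and 3 with DESeq2 (Mmp14 added) and without the filter. It became 1 with library totals only, with limma on log2(FPKM + 1) or log2(FPKM + 0.1), with the replicate block and with the 2 compared groups alone, 4 with edgeR's filterByExpr, which also tests low members, and 0 under the fold rule, and it was 1 to 2 when 1 library was left out. Where it became 1, the call lost was that of Timp3, which was also lost without the filter and when any library of these 2 groups was left out except TGF-β1 replicate 3. The call of Mmp13 in the fit without the filter was lost when any 1 of the 3 TGF-β1 libraries or G-MDSC replicate 1 was left out. Same-numbered libraries did not on average deviate together (mean correlation -0.0038 over 18 pairs, and 0.0020 over the 36 pairs that do not share one). With 3 libraries per group this cannot show whether samples were paired by replicate number. The replicate block changed no other call. Timp2 with M-MDSC supernatant was at -0.01 and turned to 0.00137 with RLE scaling, 0.0136 with library totals, 0.00137 with DESeq2, 0.0127 and 0.0128 with limma, 0.00491 with the 2 groups alone, 0.000893 without the filter and 0.00190 with filterByExpr, and ran from -0.0385 to 0.00739 when 1 library was left out. Mmp19 with M-MDSC supernatant was -0.0064 with the replicate block and -0.114 to 0.128 with a library left out, and with G-MDSC supernatant -0.254 to 0.00111. With a library left out, Mmp10 ran from -0.21 to 0.86 with TGF-β1 and from -0.131 to 0.938 with M-MDSC supernatant, and Mmp13 from -0.267 to 0.137 with TGF-β1. Among the values that kept their direction, Timp3 ran from -0.0980 to -0.0294 with TGF-β1 and Mmp2 from 0.463 to 1.08. The cause of these changes was not tested. Of the values for single genes, 556 kept their direction and their side of the threshold, 15 fell short of it, 4 newly passed it and 21 reversed. What limits the precision of the genes with few counts was not tested.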
